A study of Homo sapiens with 2 samples.

Results

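The lysosome is the acidic compartment in which a cell digests proteins, glycans and lipids, and 53 genes that build it were followed between KYN2 cells labelled HSF1 knockdown and control KYN2 cells. The members were chosen by gene name: 28 hydrolases, which cut the cargo, 5 membrane proteins, 3 cofactors that hand lipids over for digestion or export, 15 subunits and accessory proteins of the V-ATPase, which pumps in the protons, and the transcription factors TFEB and TFE3. Of these, 52 had at least 1 probe among the 18665 genes named on the array, through 83 probes in all. TMEM192 had none. The choice of names was made with earlier results of these data known.

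KYN2, an established cell line, comes from a human hepatocellular carcinoma, and HSF1 is the transcription factor best known for switching on chaperone genes under heat and other protein stress. Per the labels, the knockdown-labelled cells were a stable line made by transfecting a plasmid that encodes an shRNA against HSF1 and keeping the cells in puromycin. The labels say neither what the control cells carried nor whether either line was a single clone or a pool. Each group was measured on 1 Illumina HumanWG-6 array, so no difference could be set against a spread between replicates, and there are no p-values. Calls are therefore by size: a gene detected on both arrays was called higher or lower when its levels differed by 2-fold or more.

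Lysosomal enzymes are made in the endoplasmic reticulum, tagged with mannose 6-phosphate and sorted to the organelle, where they work best at low pH. LAMP proteins line its membrane and protect it from its own content, and the V-ATPase spends ATP to acidify the lumen. TFEB and its relative TFE3 switch on many of these genes together through a short promoter sequence, the CLEAR element, when the kinase mTORC1 on the lysosome's surface is quiet. Liver cells carry a large lysosomal load because they clear proteins and lipids from blood and recycle their own organelles.

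The arrays held signals from 36.4 to 23895 (control) and from 36.3 to 24818.2 (knockdown-labelled), in arbitrary units. Of 48802 probes, 11707 and 12200 were detected at a detection p under 0.01. The HSF1 probes did not settle whether the label holds: the brighter probe gave 164.3 (control) and 58.2 (knockdown-labelled) in signal, but its deposited detection value was 1 on the latter and 0.99473 on the former, which is the opposite order, and the other probe was detected on neither. Arrays are therefore named by their labels, and every direction rests on those labels. Of 13 liver markers with a probe, 11 were detected in control and 12 in knockdown-labelled cells. Both arrays detected 10 of them. Of these, 0 were at least 2-fold higher (against 9.89% of all genes detected on both) and 2 were lower (20%, against 10.4%). The 2 were AHSG, a secreted plasma protein, at signals of 4602.2 and 899.8 (-2.23), and APOB, the protein of very-low-density lipoprotein, at 2566 and 631.8 (-1.90). The 8 within 2-fold ran from APOA2 at 0.04 to KRT8 at 0.94. Among them, ALB, APOA1, SERPINA1 and KRT18 lay from 0.12 to 0.64, and TF was at 0.81. FGB was detected in control only (230.6 against 69.6), and AFP (201.5 against 90.4) and TTR (155.5 against 85.3) in the knockdown-labelled cells only. The 8 fibroblast and 5 endothelial markers with a probe were detected on neither array.

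Most lysosomal genes had a higher level in the knockdown-labelled cells, few of them by 2-fold. Both arrays detected 41 members, and 9 of these were at least 2-fold higher, or 22.0%, against 9.89% of all 7511 genes detected on both. Only 1 member was at least 2-fold lower, or 2.44%, against 10.4% of all genes. The difference was above 0 for 31 of the 41 members, or 75.6%, against 46.7% of all genes. At 1.5-fold, 19 members were higher (46.3%, against 20.8% of all genes) and 5 were lower (12.2%, against 22.3%). The median difference was 0.53 on the log2 scale, a 1.45-fold higher level, while that of all genes was -0.06. Among the 1480 genes with a mean level at or above the members' median, 7.91% were 2-fold higher, 6.22% were 2-fold lower and the median was -0.03. Of the 21 members at or above that level, 4 were 2-fold higher (19.0%), 0 were lower and the median was 0.56. In bulk RNA, a higher level cannot be told apart from a larger share of cells that express the gene.

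**Figure D1:**
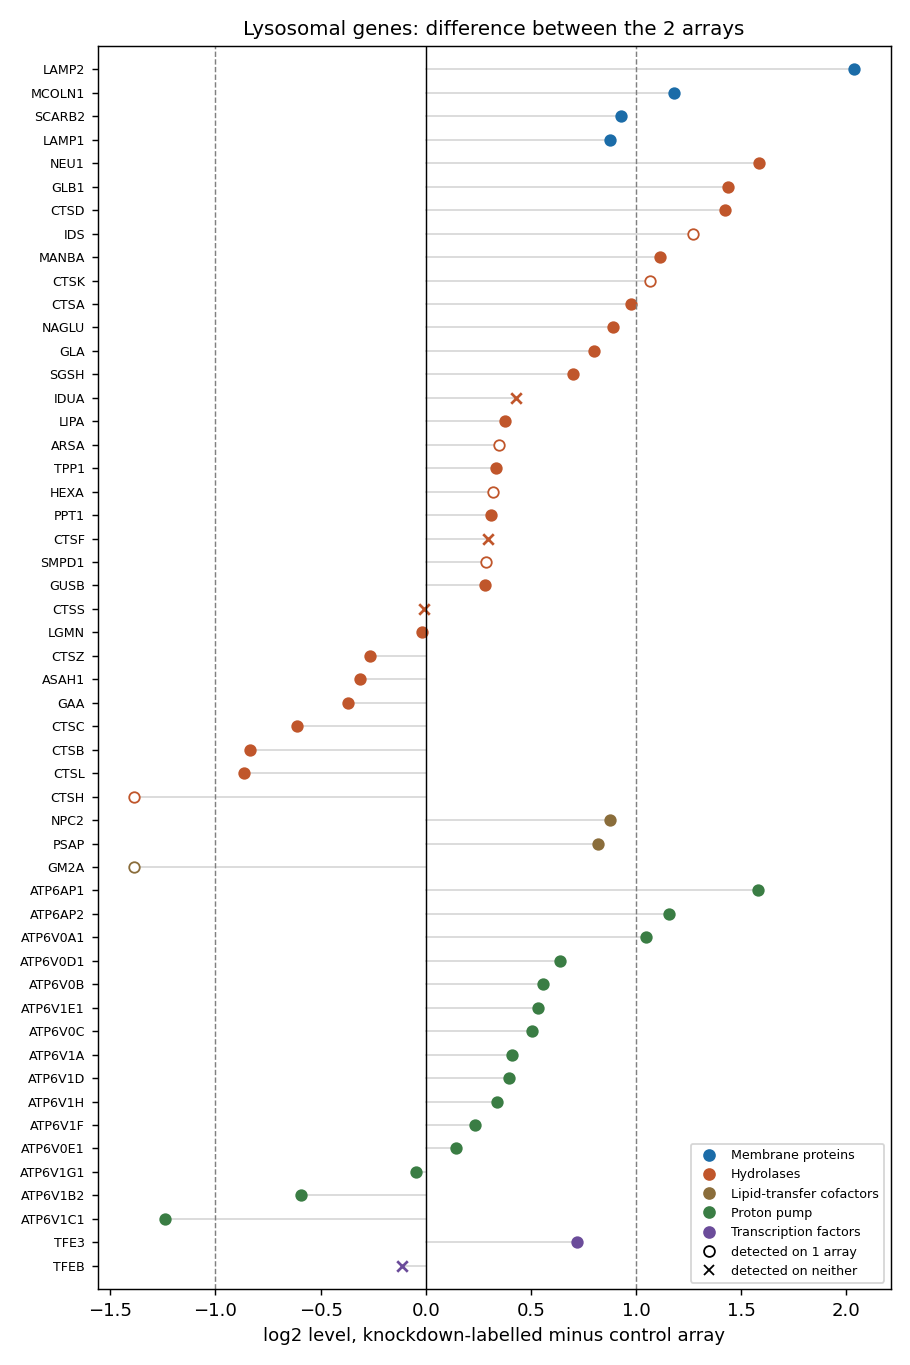
Difference in log2 level, knockdown-labelled minus control, for the 52 members with a probe, grouped by role; filled circles were detected on both arrays, open circles on 1 array and crosses on neither, and dashed lines mark 2-fold. All 4 membrane proteins lie right of 0, and hydrolases run from -0.86 to 1.58 among those detected on both arrays.

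All 4 membrane proteins measured lay above 0 (100%, against 46.7% of all genes), and 2 of them were at least 2-fold higher (50%, against 9.89%). LAMP2, a heavily glycosylated protein of the lysosomal wall, gave signals of 382 in control and 1294.3 in knockdown-labelled cells at its representative probe, 4.11-fold higher after normalization. That probe was taken for its mean level over both arrays, a choice that favours probes bright on the knockdown-labelled array. The mean difference of the detected LAMP2 probes was smaller, at 1.33. MCOLN1, the channel that lets calcium out of lysosomes, went from 254.6 to 491.4, which is 2.27-fold higher. SCARB2, which carries the enzyme glucocerebrosidase to the lysosome, stayed just inside 2-fold, with signals of 1004.3 and 1659.3 and a difference of 0.93. LAMP1, the abundant relative of LAMP2, had signals of 3115.6 and 5058.2 and a difference of 0.88. The median of the 4 genes was 1.06, or 2.08-fold.

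The LAMP2 difference depended on which transcript a probe was annotated to. The gene makes variants by splicing in different last exons; variant A encodes LAMP-2A, the receptor of chaperone-mediated autophagy, through which single cytosolic proteins enter the lysosome, and variant B encodes LAMP-2B. The 3 probes annotated to variant A differed by 1.59, 2.04 and 2.15, with signals of 218.4 and 539.4, of 382 and 1294.3, and of 257.3 and 921.1. The 2 probes annotated to variant B differed by 0.27 and 0.35, with signals of 601.6 and 659.9, and of 399.5 and 461.9. These probes were read on the same pair of arrays and are not replicates. How often probes of other genes differ by annotated transcript was not examined. A sixth probe, annotated to another LAMP2 record, was detected on the knockdown-labelled array alone, at signals of 72.9 and 136.3. In the authors' processed values the variant A probes ran from 1.38 to 1.95 and the variant B probes from 0.25 to 0.31. Across 1352 genes with 2 probes detected on both arrays, a single probe's difference had an SD of 0.33. LAMP2 spanned 1.87 from its lowest to its highest of 5 probes detected on both, a range that cannot be set against that SD. Among the 10 other members with several such probes, the widest span was 0.43, in CTSC. Those members had only 2 or 3 such probes, and a span tends to widen with more probes. Probe sequences were not used here, so whether each probe lies in an exon particular to its variant was not tested.

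**Figure D2:**
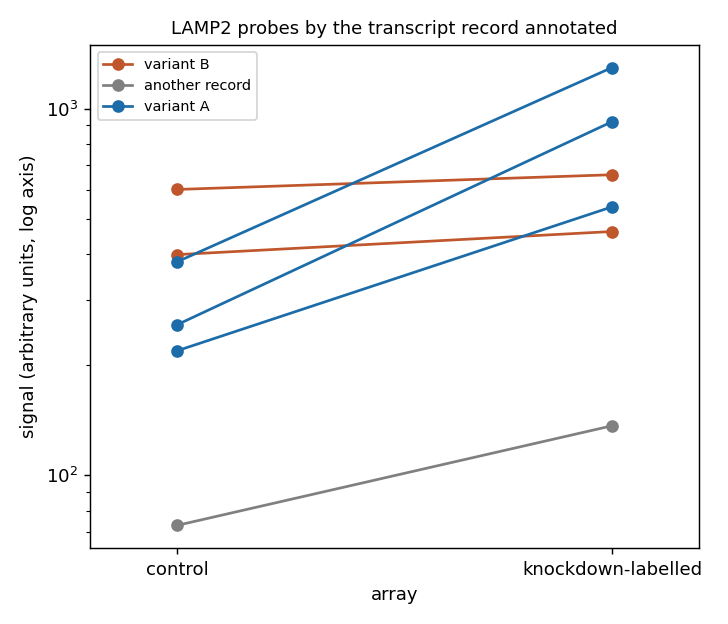
Deposited signal of each LAMP2 probe on both arrays (log axis, arbitrary units), coloured by the transcript record the platform annotation gives. The 3 variant A lines climb steeply, for example from 257.3 to 921.1, while the 2 variant B lines are nearly flat.

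The hydrolases detected on both arrays lay on either side of 0, in both the protease group and the others. Among the 11 enzymes of glycans, sulphated sugars and lipids that both arrays detected, 3 were at least 2-fold higher (27.3%, against 9.89% of all genes). In that group 0 were lower, against 10.4% of all genes, and the median was 0.70. Among the 8 proteases detected on both, 1 was at least 2-fold higher (12.5%, against 9.89%). Of the proteases 0 were lower, against 10.4%, and the median was -0.14. Over all 19 hydrolases detected on both arrays, 4 were higher (21.1%, against 9.89% of all genes) and the median was 0.33. The difference between the 2 groups of hydrolases was not tested, and CTSD, CTSA and TPP1 among the proteases lay above 0 while GAA and ASAH1 among the others lay below it.

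The sialidase NEU1, which takes sialic acid off glycans, had the largest difference among the hydrolases. Its signals were 1798.1 in control and 4661.3 in knockdown-labelled cells, a difference of 1.58. NEU1 works in a complex with the beta-galactosidase GLB1 and the carboxypeptidase CTSA, which stabilises both. GLB1 went from 918.1 to 2109, which is 2.71-fold higher, and its second detected probe differed by 1.52. CTSA went from 916.2 to 1550.7, a difference of 0.98 that falls just short of 2-fold. All 3 genes of that complex were on the higher side, 2 of them past 2-fold.

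MANBA, which removes mannose at the end of N-glycan digestion, gave signals of 155.9 and 278.5 and was 2.16-fold higher. Its call depended on the processing, because it lay under 2-fold without background correction (0.90) and in the authors' processed values (0.88). GLA, the alpha-galactosidase that digests globotriaosylceramide, had signals of 2226 and 3371.9 and a difference of 0.80. NAGLU and SGSH, both of heparan sulphate digestion, differed by 0.89 and 0.70. GUSB, the beta-glucuronidase of the same route, differed by only 0.28, the thioesterase PPT1 by 0.31 and the cholesteryl ester lipase LIPA by 0.38. On the lower side within 2-fold were the glycogen-digesting GAA (-0.37) and the ceramidase ASAH1 (-0.31).

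Several sugar and lipid hydrolases lay near the detection limit. IDS, which removes sulphate from dermatan and heparan sulphate, was detected on the knockdown-labelled array alone at its representative probe, with signals of 94.6 and 168.8. Whether it passed 2-fold depended on the processing: the normalized level was at least 2.28-fold higher there, but the difference was 0.85 without background correction and 0.84 in the authors' processed values, both under 2-fold. A second IDS probe, also detected on that array alone, had signals of 88.4 and 102.3 and a difference of 0.37. HEXA, the alpha chain of hexosaminidase A, went from 92.7 to 105.4 and SMPD1, the acid sphingomyelinase, from 89.9 to 100.6. ARSA, which digests sulphatides, went from 82.6 to 93.4. Only the knockdown-labelled array detected these 3, and the detection limit of the control array allows folds of at least 1.14 for HEXA and 1.05 for SMPD1, and none for ARSA. IDUA, the iduronidase, was detected on neither array, at signals of 56.8 and 69.9.

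Among the proteases detected on both arrays, the aspartic protease CTSD stood on the opposite side from the cysteine cathepsins. CTSD, the main aspartic protease of the lysosome, went from 416.6 to 959, which is 2.68-fold higher. The cysteine cathepsins, grouped by catalytic type after their values were seen, were all below 0 where both arrays detected them. CTSB gave signals of 971.6 and 512.7 (-0.84), CTSL of 320.7 and 185.7 (-0.86), CTSC of 1571.8 and 924.8 (-0.61) and CTSZ of 351 and 280.3 (-0.27). CTSB and CTSL are endopeptidases of broad range. CTSC is the dipeptidyl peptidase that activates granule proteases of immune cells, and CTSZ trims single residues from the carboxyl end.

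None of those 4 reached 2-fold at its representative probe, although the second detected probes of CTSB (-1.05) and CTSL (-1.20) did. The third CTSC probe detected on both arrays differed by -0.20, so the size of the CTSC difference depended on the probe. CTSH, an aminopeptidase, was detected on the control array alone, with signals of 146 and 79.3. Its normalized level was lower in the knockdown-labelled cells by at least 2.02-fold, but the difference was -0.86 without background correction and -0.84 in the authors' processed values, both within 2-fold. CTSK, best known from bone-resorbing osteoclasts, was detected on the knockdown-labelled array alone at 92.9, against 60.4, a difference too close to the limit to give a fold. CTSF and CTSS were detected on neither array, at signals of 61.2 and 68.9 for CTSF and of 48.5 and 47.1 for CTSS, the latter a protease of antigen-presenting cells. LGMN, which cuts after asparagine, differed by -0.02, and the tripeptidyl peptidase TPP1 by 0.33.

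Of the macrophage markers, CD14 and LYZ were detected in the knockdown-labelled cells only, at signals of 256.7 and 667.2 against 76 and 78 in control. The list's summed signal was 1354.8 in control and 1940.3 in knockdown-labelled cells, and 1 of its 14 markers was detected on the former and 3 on the latter. PTPRC, CSF1R, CD163, AIF1 and TYROBP, which define blood-derived cells and macrophages, were detected on neither array. CD68, itself a lysosomal membrane protein, was detected on both and differed by -0.50.

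The cofactors of lipid digestion went different ways. PSAP, the precursor of the saposins that present sphingolipids to their hydrolases, had signals of 5170.2 and 8173.9 and a difference of 0.82, with 0.89 at its second probe. NPC2, which binds cholesterol in the lumen and passes it to the membrane for export, had signals of 4399.4 and 7265 and a difference of 0.87. GM2A, the protein that lifts ganglioside GM2 out of the membrane for hexosaminidase A, was detected on the control array alone, at 120.7 against 67.9, and was lower in the knockdown-labelled cells by at least 1.55-fold.

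The V-ATPase joins a V1 sector, which burns ATP in the cytosol, to a V0 sector, which carries protons through the membrane. Both arrays detected all 15 members. Of these, 3 were at least 2-fold higher (20%, against 9.89% of all genes) and 1 was at least 2-fold lower (6.67%, against 10.4%). The difference lay above 0 for 12 (80%, against 46.7%), and the median was 0.41. Without the 2 accessory proteins, both X-linked, 1 of 13 was higher (7.69%, against 9.89% of all genes). Another 1 was lower (7.69%, against 10.4%), and the median was 0.40. By sector, the median was 1.37 for the 2 accessory proteins, 0.56 for the 5 V0 subunits and 0.29 for the 8 V1 subunits.

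ATP6AP1, an accessory protein needed to assemble the pump, had the largest difference of the class, with signals of 2545.8 and 6689.8, or 2.99-fold. ATP6AP2, known also as the prorenin receptor, went from 1011.5 to 1940.2, which is 2.23-fold higher. ATP6V0A1, one of the alternative a subunits that place the pump on particular membranes, went from 748.2 to 1335.5, a difference of 1.05 that fell to 0.95 with median scaling. The other V0 subunits stayed within 2-fold, all above 0. ATP6V0C, which forms most of the proton-carrying ring, had signals of 5419.9 and 6975.7 (0.50). ATP6V0E1 had nearly equal signals, 5281.7 and 5247.5 (0.15). ATP6V0D1, which couples the ring to the rotor, differed by 0.64 and the ring subunit ATP6V0B by 0.56.

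In the V1 sector 5 of 8 subunits lay above 0 and none reached 2-fold higher. They ran from ATP6V1F at 0.23 to ATP6V1E1 of the stalk at 0.53, with the catalytic subunit ATP6V1A at 0.41. ATP6V1B2, which alternates with ATP6V1A in the ATP-burning ring, lay on the opposite side, with signals of 2625.2 and 1508.1 and a difference of -0.59. ATP6V1C1, which clamps V1 onto V0, was the 1 member called lower, with signals of 341 and 161.7, or 2.36-fold. A second ATP6V1C1 probe ran the other way, from 87.6 to 120.2, and only the knockdown-labelled array detected it, so the mean of the probes was -0.24. ATP6V1G1 differed by -0.05.

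**Figure D3:**
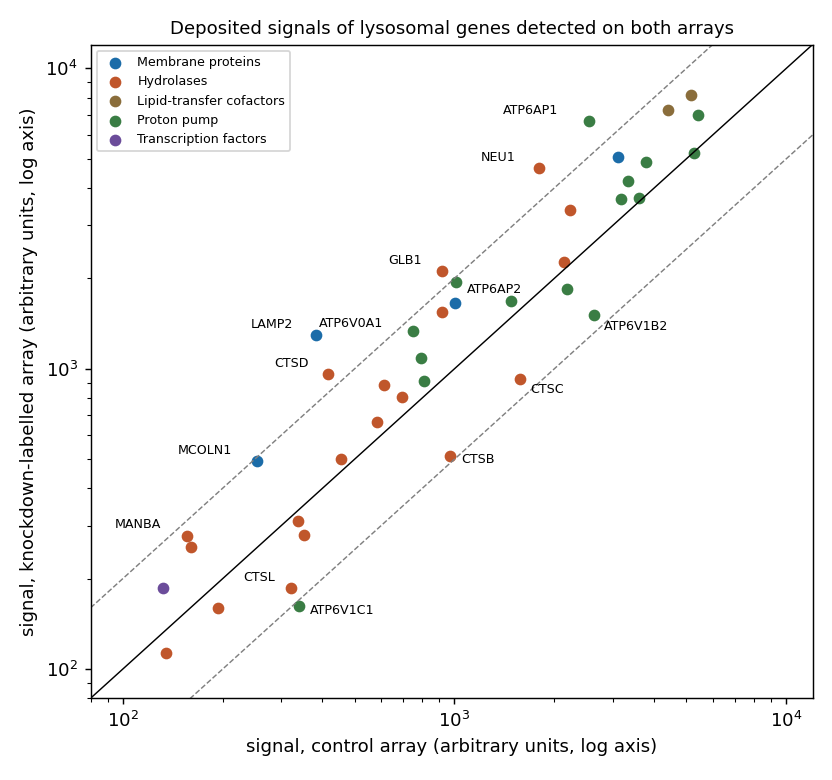
Deposited signal on the knockdown-labelled array against the control array for the 41 members detected on both (log axes, arbitrary units), coloured by role; the solid line marks equal signals and the dashed lines a 2-fold ratio of the raw signals. Most points lie above the solid line, with the cysteine cathepsins CTSB, CTSC and CTSL and the V1 subunits ATP6V1B2 and ATP6V1C1 below it.

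Of the transcription factors of the lysosomal programme, TFEB was detected on neither array, at signals of 55.2 and 47.7. TFE3 was detected on both, at 132 and 186.6, with a difference of 0.72. MITF, a relative of both, was detected on both arrays at 246.2 and 197.1, a difference of -0.32, and TFEC was detected on neither array. These factors are controlled largely by phosphorylation and entry into the nucleus, which an RNA array does not measure.

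Promoter sequences from RefSeq (GRCh38.p14), running from 250 bases before to 50 bases after each listed gene start, were matched for 36 of the 53 members, at 44 starts. No entry was matched for LAMP2, CTSB, CTSK, CTSS, LGMN, HEXA, MANBA, NAGLU, SGSH, ARSA, ASAH1, PSAP, ATP6V0E1, ATP6V1A, ATP6V1B2, ATP6V1C1 and ATP6V1H. The octamer TCACGTGA, the core of the CLEAR element and the same on both strands, was found in 6 of the 36 (16.7%), against 1.18% of all 27305 genes with a promoter entry and 2.74% of the 6308 of them detected on both arrays. The whole element, which is the octamer with G before it and C after it, was found in MCOLN1, GAA and ATP6V1G1 (8.33%, against 0.421% and 1.13%). The heat shock element that HSF1 binds, searched on both strands as GAA, TTC and GAA with any 2 bases (NN) between them, was found in 0 of the 36, against 0.608% and 0.491%, which says only that these letters are not in these windows. The octamer windows, picked because they hold it, follow so that the bases around each octamer can be compared, 5′ to 3′ on the gene's strand, with the octamer in capitals.
MCOLN1, chr19:7522598-7522627, + strand: gggctaccgggTCACGTGAccgaggcacag
MCOLN1, chr19:7522571-7522600, + strand: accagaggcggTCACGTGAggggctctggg
LAMP1, chr13:113297199-113297228, + strand: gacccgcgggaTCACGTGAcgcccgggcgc
LAMP1, chr13:113297226-113297255, + strand: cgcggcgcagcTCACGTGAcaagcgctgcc
CTSA, chr20:45891298-45891327, + strand: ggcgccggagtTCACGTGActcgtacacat
ATP6V0D1, chr16:67481199-67481228, - strand: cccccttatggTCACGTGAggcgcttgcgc
GAA, chr17:80101493-80101522, + strand: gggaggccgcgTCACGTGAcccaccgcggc
GAA, chr17:80101538-80101567, + strand: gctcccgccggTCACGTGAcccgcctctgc
ATP6V1G1, chr9:114587699-114587728, + strand: acgctgtgcggTCACGTGAcaacgggggcg

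The octamers began between 77 and 2 bases before the gene start. Their genes did not share a direction: MCOLN1 differed by 1.18, CTSA by 0.98, LAMP1 by 0.88 and ATP6V0D1 by 0.64, while ATP6V1G1 was at -0.05 and GAA at -0.37. The median of these 6 was 0.76, and that of the 22 members detected on both arrays whose promoters lack the octamer was 0.55. For the whole element the order was the reverse. The median was -0.05 for the 3 members with it and 0.64 for the 25 members detected on both arrays without it. Neither contrast was tested. MCOLN1 was the only member with the whole element that was called higher, and its 250 bases before the start are shown with that element in capitals.
MCOLN1, chr19:7522374-7522623, + strand: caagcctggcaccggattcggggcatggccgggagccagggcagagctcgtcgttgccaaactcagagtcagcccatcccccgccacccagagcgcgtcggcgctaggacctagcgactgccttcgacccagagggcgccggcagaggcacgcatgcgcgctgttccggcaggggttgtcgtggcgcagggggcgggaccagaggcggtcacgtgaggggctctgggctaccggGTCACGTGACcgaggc

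Of the 6 X-linked members, LAMP2, ATP6AP1 and ATP6AP2 were called higher, GLA and TFE3 differed by 0.80 and 0.72, and IDS was detected in the knockdown-labelled cells only. The median of the 5 detected on both arrays was 1.15. The 222 other X-linked genes that both arrays detected had a median of 0.15, the highest of 23 chromosomes, whose medians started at -0.16, and 17.1% of them were at least 2-fold higher. Around LAMP2, the 30 nearest detected genes, 15 on each side, had a median of 0.65, with 11 at least 2-fold higher and 0 lower. Of all genes detected on both arrays, 9.89% were higher and 10.4% lower. The neighbours of ATP6AP1 had a median of 0.47 (4 higher, 1 lower), those of GLA of 0.41 (12 and 5) and those of ATP6AP2 of 0.20 (3 and 2). The neighbours of IDS had a median of 0.10 (7 and 0) and those of TFE3 of -0.09 (1 and 3), although TFE3 itself differed by 0.72. The part of chromosomal position in these differences was not tested. Without the X-linked members, 36 remained, of which 6 were at least 2-fold higher (16.7%), 1 was lower and the median was 0.40. For all 41 members the median gap to their neighbours was 0.72, and 32 of 41 lay above the median of their neighbours.

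**Figure D4:**
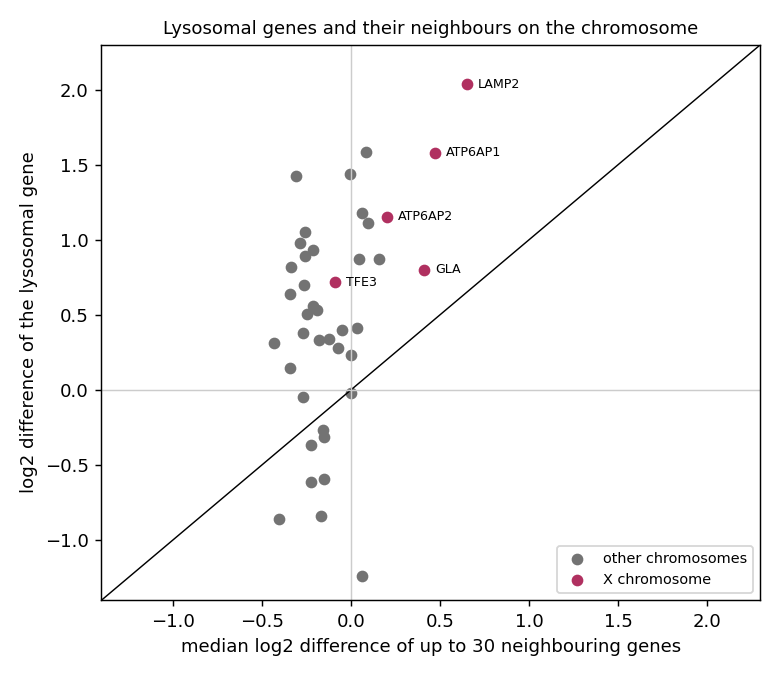
Log2 difference of each member detected on both arrays against the median difference of up to 30 detected genes nearest to it on its chromosome, with X-linked members in colour and the line marking equal values. Points lie above the line for 32 of 41 members, and LAMP2, at 2.04 against 0.65, has the highest neighbour median.

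Other genes of the pathway were taken from lists outside the 53, also chosen with earlier results of these data known. Both arrays detected 9 further hydrolases, with 2 at least 2-fold higher (22.2%, against 9.89% of all genes), 0 lower, and the median was 0.53. These were FUCA1, which removes fucose from glycans (1.41), and DNASE2, which digests DNA in the lysosome (1.33). Of 14 further membrane proteins, OSTM1, the partner of the chloride transporter CLCN7, was higher (1.03) and the amino acid sensor SLC38A9 was lower (-1.32). These were 7.14% each way, against 9.89% higher and 10.4% lower of all genes, and the median was 0.12. MCOLN3, a channel related to MCOLN1, was detected on the knockdown-labelled array alone, at signals of 76.8 and 156.8. The cholesterol exporter NPC1, which takes cholesterol from NPC2, stayed within 2-fold at 0.94, and CD63 was at 1.00, under the 2-fold limit before rounding. Of 2 further pump subunits detected on both arrays, ATP6V0E2 was higher (1.17) and ATP6V0A2 was at 0.52.

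Both arrays detected 12 genes of the enzymes' sorting route, of which 1 was at least 2-fold higher (8.33%, against 9.89% of all genes) and 2 were lower (16.7%, against 10.4%), with a median of 0.45. SUMF1, which activates all sulphatases including ARSA, IDS and SGSH, was higher (1.52). The mannose 6-phosphate receptors IGF2R and M6PR differed by 0.44 and 0.56, and GNPTAB and GNPTG of the tagging enzyme by 0.62 and 0.66. The coat adaptors GGA2 (-1.33) and AP1M1 (-1.07), which load receptors into vesicles at the Golgi, were lower. Of 16 genes of nutrient sensing on the lysosome's surface, FNIP1, the partner of folliculin, was higher (1.35). That is 6.25%, against 9.89% of all genes, while 0 were lower, against 10.4%, and the median was -0.03. Of 3 cathepsin inhibitors detected on both arrays, 0 passed 2-fold, with CST3, the secreted cystatin C, at -0.50 and CSTB, the cytosolic cystatin B, at 0.27.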

How the data were processed

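The deposited non-normalized table gives, per the file headers, a bead intensity on a linear scale and a detection value for each probe on 2 arrays, 1 per group. The deposited detection columns hold a fraction that rises with the signal, so the detection p was taken as 1 minus it. The authors' processed table holds log2 values of unstated centring, with column medians of 0.00222 and -0.00275; its differences followed the log2 signal ratios (slope 0.981) and were used as an alternative. The sources used here do not give the scanner, its software or any background handling.

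Signals were processed with nec and quantile normalization (the steps of neqc) in limma 3.58.1, R 4.3.3, with an offset of 16. The offset shrinks folds of dim genes, while background correction widens them. CTSH, for example, differed by -1.39 here and by -0.86 without background correction. Gene names came from the 2016 platform annotation: 27577 had 1 symbol, 13 several and 21212 none. The probe with the highest mean level stood for its gene. A gene detected on 1 array has an "at least" fold, from its level there down to the lowest level detected on the other array, or to its own level on that array where this was higher; it holds for these normalized levels only and can be smaller without background correction. The lowest detected level was taken without the HSF1 probes, because the detection values of the brighter one ran opposite to its signals. The number of arrays limits the precision.

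Every member was accounted for; signals are given for members past 2-fold, members detected on 1 array, TFEB, TFE3 and the 2 members of highest mean level in each class, and for cathepsins and others where a group turned on them. Of other pathway genes, those past 2-fold were named. Members and lists were chosen with earlier results of these data known. Examples within 2-fold, and the cysteine cathepsins as a group, were chosen after their values were seen.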

Additional observations from a re-analysis of the deposited data

How the results depend on the processing

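Without background correction, with an offset of 50, median scaling, the authors' processed values, a detection limit of 0.05, the mean of detected probes, or every member with a probe counted, the number of members at least 2-fold higher ran from 7 to 11, against 9. Leaving out the X-linked members, an alternative chosen after seeing the data, gave 6. The median of all members ran from 0.40 to 0.53, that of hydrolases from 0.28 to 0.33, of membrane proteins from 0.93 to 1.06 and of the proton pump from 0.29 to 0.41, none changing sign. The number at least 2-fold lower was 1, and became 2 at the detection limit of 0.05, 3 with every member counted and 0 with the mean of detected probes, which averages both ATP6V1C1 probes. Of 10 called members, 7 kept their call in every alternative that changes its value; MANBA, ATP6V0A1 and ATP6V1C1 did not. Differences of dim members (CTSH, CTSK, GM2A, IDS) shrank most without background correction. No paired analysis was possible because each group holds 1 array. With 1 array per group, variation between cultures was not measured.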
